A study of Mus musculus with 19 samples.

Results

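The MS4A genes of monocytes described here are Ms4a4c, Ms4a6b, Ms4a6c, Ms4a6d and Ms4a7, chosen by name. All 5 were found among the 33559 rows of a deposited gene table of bone marrow monocytes, and all 5 were among the 16791 genes kept after rows with fewer than 2 libraries reaching an FPKM of 1 were removed. FPKM counts fragments per unit of gene length and library size, so levels can be compared between genes. The table held bulk RNA-seq of total RNA from 5 libraries of wild-type mouse bone marrow monocytes, 3 with G-CSF (G-CSF replicates 1 to 3) and 2 with no treatment (control replicates 1 and 2). G-CSF is the cytokine that drives the production and release of granulocytes from the marrow. The sources used here do not give the dose, the duration, the age of the mice, how the monocytes were purified, or whether mice or cultured cells received G-CSF. The other 14 samples of the series, from skin of wild-type and Cxcr2 knockout mice, were not analysed here. Nothing in the labels ties the replicates to separate mice, and the spread on which the p-values rest may be technical.

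MS4A proteins span the membrane several times and sit beside immune receptors, where some of them modulate signalling and calcium entry. The best-known relatives are the B cell antigen CD20, encoded by Ms4a1, and the beta chain of the high-affinity IgE receptor, encoded by Ms4a2. In mice a further set is expressed by monocytes and macrophages. Ms4a7 is widely used as a marker of monocyte-derived macrophages, Ms4a6c is expressed by classical monocytes, Ms4a6d has been reported in mouse macrophages to act with Vsig4 in restraining the inflammasome gene Nlrp3, and Ms4a4c often appears among mouse interferon-induced genes.

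All 5 MS4A genes had higher levels in every G-CSF library than in both controls, and no member passed the adjustment over all genes. The summed level of the 5 genes averaged 94.5 ± 20.1 FPKM with G-CSF (SD, n = 3) and 28.7 ± 13.6 FPKM in controls (SD, n = 2), a ratio of means of 3.29. With a single control as the denominator, this ratio was 2.47 (control replicate 1) or 4.94 (control replicate 2). On the log2(FPKM + 1) scale the difference was widest for Ms4a6d and narrowest for Ms4a6b. As a ratio of means it was widest for Ms4a4c (5.6-fold), a low gene, followed by Ms4a6d (4.65-fold), and on the log2 scale Ms4a4c also came before Ms4a6d with a pseudocount of 0.1 (2.51 and 2.36) and with voom on recovered reads (2.21 and 2.07). Across all genes tested, 20.0% were higher in every G-CSF library than in both controls and 56.3% had a positive log2 fold change, so a separation of this kind was not rare. By limma on log2(FPKM + 1), 0.00596% of genes (1 of 16791, none of the members) were called higher and 0 were called lower at a Benjamini-Hochberg adjusted p under 0.05. At an unadjusted p under 0.05, 7.9% of genes were higher and 4.76% lower, and 4 of the 5 members were among the higher ones. The same 4, all except Ms4a6b, had a log2 fold change over 1, which 6.71% of all genes tested had. The median log2 fold change was 1.39 over the 5 members and 0.08 over all genes tested. In bulk RNA, more cells of a type and more RNA per cell cannot be told apart, and this holds for every difference given here.

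**Figure D1:**
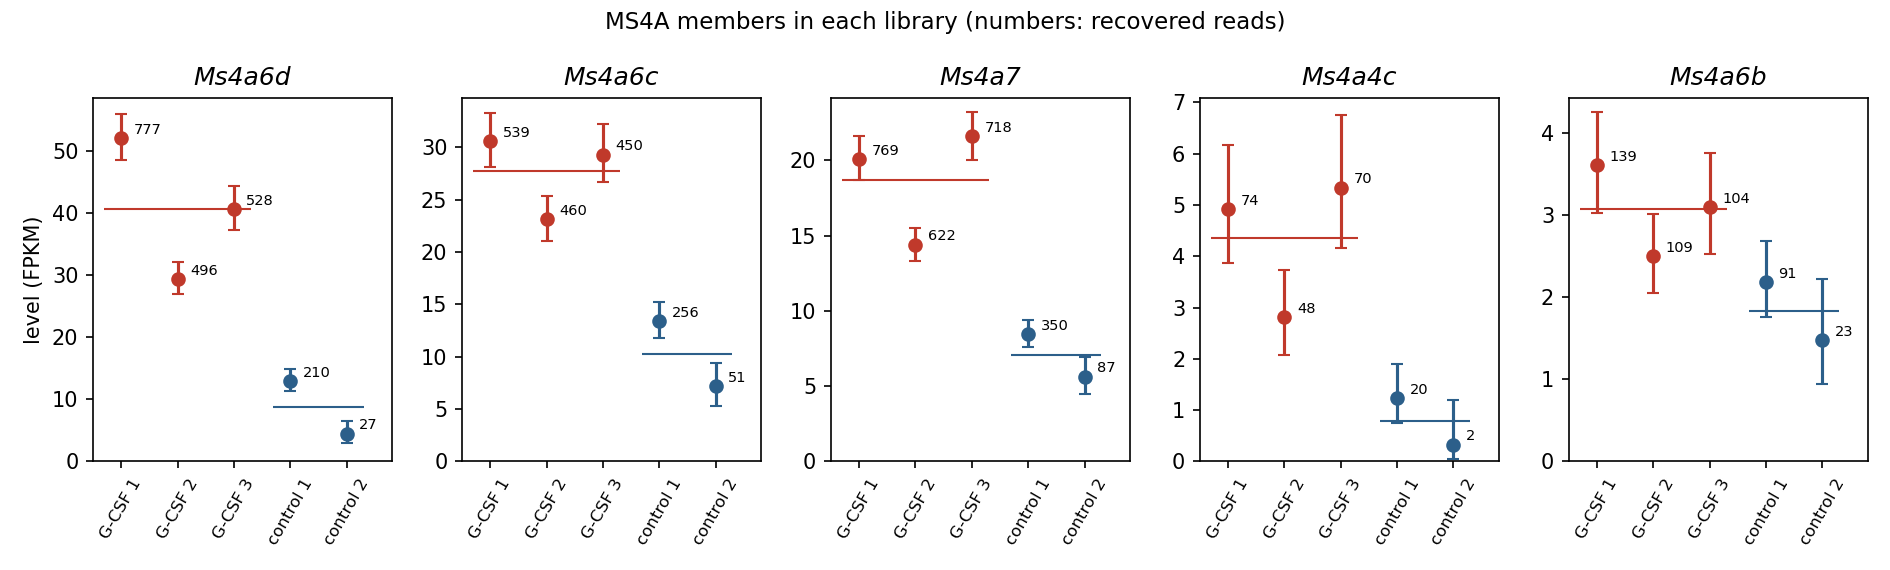
Levels of the 5 MS4A genes in FPKM (y axis, linear from 0, its own scale for each gene) in the 3 G-CSF libraries (red) and the 2 control libraries (blue). Points are libraries, bars exact 95% Poisson intervals of the reads printed beside them, and horizontal lines group means. Every G-CSF library lies above both controls for each gene, and control replicate 2 is the lowest library for all 5.

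The reads behind each level could be counted, because a deposited FPKM times the exonic length of the gene was a whole multiple of 1 step per library for each of the 5 genes. Intervals given for reads cover counting error only. Over the matched genes, the libraries summed to 6988767, 6953014 and 5911205 reads with G-CSF and to 5982008 and 2924047 reads in control replicates 1 and 2. Control replicate 2 was therefore the shallowest library. It was also the lowest of the 5 libraries for 42.0% of all genes tested and for all 5 members. Within the G-CSF group, replicate 2 was the lowest library for all 5 members, against 40.7% of all genes tested.

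Ms4a6d, a macrophage gene of the family, was the most abundant member in the G-CSF libraries. It measured 52.1, 29.4 and 40.7 FPKM with G-CSF, from 777, 496 and 528 reads, and 13 and 4.49 FPKM in controls, from 210 and 27 reads. The lowest G-CSF library exceeded the higher control by 2.26-fold, while the controls differed from each other by 2.9-fold. Group means were 40.7 ± 11.3 FPKM with G-CSF (SD, n = 3) and 8.75 ± 6.03 FPKM in controls (SD, n = 2), a ratio of 4.65. The log2 fold change was 2.21 ± 0.48 (SE, 95% interval 1.03 to 3.40; limma adjusted p = 0.255, unadjusted p = 0.00395). It exceeded the log2 fold change of 99.5% of all genes tested. Ms4a6d occupies 11586604 to 11604849 of chromosome 19 (GRCm38, minus strand, ENSMUSG00000024679), and no other annotated gene overlaps it.

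Ms4a6c, the classical monocyte gene, had the highest measured level of the members in both controls. It measured 30.6, 23.1 and 29.3 FPKM with G-CSF, from 539, 460 and 450 reads, and 13.4 and 7.18 FPKM in controls, from 256 and 51 reads. The G-CSF libraries lay within 1.33-fold of each other and 1.72-fold or more above the higher control. The log2 fold change was 1.39 ± 0.34 (SE, 95% interval 0.56 to 2.22; limma adjusted p = 0.265, unadjusted p = 0.00644). Ms4a6c occupies 11469366 to 11482192 of chromosome 19 (plus strand, ENSMUSG00000079419). The noncoding gene BE692007 overlaps it on the other strand and measured 7.44, 5.78 and 7.33 FPKM with G-CSF, against 6.08 and 3.12 FPKM in controls. No source used here says whether reads were counted by strand, so reads in shared exonic sequence could belong to either gene.

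Ms4a7, the macrophage marker, measured 20.1, 14.4 and 21.6 FPKM with G-CSF, from 769, 622 and 718 reads, and 8.45 and 5.64 FPKM in controls, from 350 and 87 reads. It had the closest pair of controls after Ms4a6b, 1.5-fold apart, and its lowest G-CSF library was 1.7-fold above the higher control. The log2 fold change was 1.29 ± 0.30 (SE, 95% interval 0.55 to 2.04; limma adjusted p = 0.258, unadjusted p = 0.00568). Ms4a7 occupies 11321039 to 11336146 of chromosome 19 (minus strand, ENSMUSG00000024672).

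Ms4a4c, the gene often listed as interferon-induced, was a low-level transcript. It measured 4.92, 2.82 and 5.34 FPKM with G-CSF, from 74, 48 and 70 reads, and 1.23 and 0.329 FPKM in controls, from 20 and 2 reads. The groups did not overlap, but the lower control rests on 2 reads, whose exact 95% Poisson interval runs from 0.0399 to 1.19 FPKM. On pooled reads the ratio of G-CSF to control replicate 2 was 12.9 with a 95% interval of 3.52 to 107.0, and that to control replicate 1 was 3.46 (2.18 to 5.79). The log2 fold change was 1.60 ± 0.36 (SE, 95% interval 0.71 to 2.5; limma adjusted p = 0.258, unadjusted p = 0.00472). For such a low gene it depended on the pseudocount, with 2.51 for a pseudocount of 0.1 and 0.69 for one of 5. Ms4a4c occupies 11404770 to 11427246 of chromosome 19 (plus strand, ENSMUSG00000024675), and the processed pseudogene Gm5692, which overlaps it on the other strand, stayed at or below 0.379 FPKM in every library.

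Ms4a6b differed least between the groups. It measured 3.61, 2.5 and 3.1 FPKM with G-CSF, from 139, 109 and 104 reads, and 2.18 and 1.48 FPKM in controls, from 91 and 23 reads. The lowest G-CSF library was 1.15-fold above the higher control, and the exact 95% Poisson intervals of those libraries, 2.05 to 3.01 and 1.76 to 2.68 FPKM, overlapped. Its log2 difference between groups was 0.53 ± 0.26 (SE) and had a 95% interval of -0.11 to 1.16 (limma adjusted p = 0.444, unadjusted p = 0.0883). It exceeded that of 78.4% of all genes tested. Ms4a6b occupies 11516512 to 11531256 of chromosome 19 (plus strand, ENSMUSG00000024677). The antisense gene Gm19261, which overlaps it, was at or below 0.399 FPKM in every library.

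Because paralogs share sequence, the share of 50-base stretches of each member's transcripts that also occur in transcripts of another gene was counted in GENCODE M21. It was 10.5% for Ms4a6c, shared with Ms4a6b and with several genes outside the family, 8.19% for Ms4a4c, shared with Ms4a4b and Ms4a4d, 3.57% for Ms4a6b, 2.54% for Ms4a6d and 0.306% for Ms4a7. No source used here says how reads with several matches were treated, so those parts of the levels are uncertain. Most of each transcript was specific to its gene.

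Ms4a6b and Ms4a6c also share sequence before their start sites, although their differences between groups were of unlike size. The 250 bases before the RefSeq start of each gene (GRCm38.p6) are shown because this is the only pair among the 4 members with a listed promoter (Ms4a4c, Ms4a6b, Ms4a6c and, with 2 starts, Ms4a7) whose stretches had any run of at least 12 bases in common. Capitals mark those runs, both stretches are written 5′ to 3′ on the plus strand, and they lie at chr19:11518309-11518558 and chr19:11469118-11469367. The first of these falls inside the GENCODE M21 span of Ms4a6b, which begins further upstream.
Ms4a6b: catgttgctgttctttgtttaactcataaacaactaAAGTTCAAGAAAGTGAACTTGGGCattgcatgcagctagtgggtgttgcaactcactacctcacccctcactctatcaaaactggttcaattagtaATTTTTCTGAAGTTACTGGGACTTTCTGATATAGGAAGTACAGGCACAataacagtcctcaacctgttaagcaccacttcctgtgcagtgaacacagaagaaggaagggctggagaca
Ms4a6c: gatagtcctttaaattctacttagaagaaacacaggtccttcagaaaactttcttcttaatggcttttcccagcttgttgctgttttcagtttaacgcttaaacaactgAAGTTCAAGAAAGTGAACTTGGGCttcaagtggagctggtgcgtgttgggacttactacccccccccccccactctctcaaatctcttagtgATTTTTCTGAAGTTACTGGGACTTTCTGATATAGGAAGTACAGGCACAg
In both genes 72 of the 250 bases (28.8%) lay in shared runs. The longest run, of 48 bases, was 118 to 71 bases before the start of Ms4a6b and 49 to 2 bases before the start of Ms4a6c.

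Within the same library, Ms4a6c exceeded Ms4a6b by 8.48-, 9.23- and 9.47-fold with G-CSF and by 6.15- and 4.85-fold in controls. All 3 G-CSF ratios were above both control ratios. An exact two-sided permutation test of the log2 ratios, with the one-sided p doubled, gave p = 0.2. That is the smallest p this test can give for 3 libraries against 2, so it could not pass a threshold of 0.05 for any ratio.

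The 4 promoters were searched on both strands for letters of motifs bound by factors of monocytes and cytokine signalling. The STAT letters TTCNNNGAA, the interferon response letters (GAAA, any 2 bases, GAAA) and the C/EBP letters TTGCNNAA had no match in the 250 bases before any listed start of the 4 members. Of 32851 such stretches over all genes, 7.02%, 2.98% and 9.56% held them, in that order. The PU.1 letters GAGGAA, present in 23.3% of all stretches, matched 1 time, 61 to 56 bases before the start of Ms4a4c, and no matches of different motifs overlapped. The stretches of Ms4a4c and Ms4a6b, and 1 of the 2 of Ms4a7, lie inside the GENCODE M21 spans of their genes. These searches describe letters in a short window only.

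The measured order of abundance of the members also differed between the groups. In each G-CSF library the order, from high to low, was Ms4a6d, Ms4a6c, Ms4a7, Ms4a4c and Ms4a6b. Control replicate 1 had Ms4a6c at 13.4 and Ms4a6d at 13 FPKM, followed by Ms4a7, Ms4a6b and Ms4a4c, and control replicate 2 had Ms4a6c, Ms4a7, Ms4a6d, Ms4a6b and Ms4a4c. Neighbours in this order were often close. The Poisson intervals of Ms4a4c and Ms4a6b overlapped in both controls and in G-CSF replicates 1 and 2. Those of Ms4a6c and Ms4a6d overlapped in both controls, and in control replicate 2 that of Ms4a7 overlapped both of them. The order within the controls is therefore uncertain at these pairs. The share of Ms4a6d in the summed level of the 5 genes was 40.7 to 46.8% with G-CSF and 23.5 to 34.0% in controls. Ms4a6b made up 3.10 to 3.46% with G-CSF and 5.70 to 7.74% in controls. The ratio of Ms4a6d to Ms4a6c was 1.70, 1.27 and 1.39 with G-CSF and 0.969 and 0.626 in controls, without overlap (exact permutation p = 0.2, again the smallest possible). Ms4a7 and Ms4a6c kept closer to a fixed ratio, 0.657, 0.622 and 0.735 with G-CSF and 0.629 and 0.785 in controls, and the groups overlapped (exact permutation p = 0.6).

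The rest of the family was examined for such differences beyond the 5 genes. The table held 16 MS4A genes, 11 of them other than the members, and 4 of these 11 passed the filter. Together with the MS4A-like genes Tmem176a and Tmem176b, 11 of a list of 22 family genes and relatives were tested. Of these, 10 had a positive log2 fold change, 10 were higher in every G-CSF library than in both controls, 0 passed the adjustment and the median was 1.39. Over all genes tested, 56.3% were positive, 20.0% were higher without overlap and the median was 0.08. The 5 members are part of that list and of these counts. Outside the members, Ms4a3, Ms4a4a, Ms4a14, Tmem176a and Tmem176b were higher without overlap and Ms4a1 was negative. Ms4a14 passed the filter through G-CSF replicates 1 and 3 alone (1.83 and 1.55 FPKM, against 0.582 and 0.284 FPKM in controls). This favoured a higher value with G-CSF.

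Ms4a4a, which in human macrophages is found with the lectin receptor dectin-1, was the most abundant MS4A gene in every library. It measured 83.3, 86.6 and 72.9 FPKM with G-CSF, against 44.3 and 12.8 FPKM in controls (1.71 ± 0.53 on the log2 scale, SE; limma adjusted p = 0.33). Ms4a3, a gene of granulocyte-monocyte progenitors, measured 16.3, 20.5 and 11.6 FPKM with G-CSF, against 7.88 and 1.99 FPKM in controls (1.70 ± 0.52; limma adjusted p = 0.323). Both exceeded the controls without overlap, yet unlike the 5 members they had their highest library in G-CSF replicate 2. Ms4a14 differed by 0.74 ± 0.30 on the log2 scale, and Tmem176a and Tmem176b had 1.42 ± 0.34 and 1.10 ± 0.38 (SE; limma adjusted p = 0.397, 0.261 and 0.356).

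Ms4a1, encoding CD20, was the single tested gene of the list with a negative value. It measured 1.09, 1.16 and 1.38 FPKM with G-CSF, against 4.71 and 1.21 FPKM in controls, so its log2 difference of -0.69 ± 0.43 (SE; limma adjusted p = 0.516) rested on control replicate 1. Control replicate 1 also had the highest summed level of 15 B cell markers, Ms4a1 among them, 279 FPKM, against 166 FPKM in control replicate 2 and 86.7 to 111 FPKM with G-CSF. Ms4a2, which is expressed by mast cells and basophils, was at 0.523 to 0.877 FPKM with G-CSF and at 1.95 and 0.41 FPKM in controls and was not tested.

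The other MS4A genes were close to the limit of detection. Ms4a8a had 5, 8 and 6 reads with G-CSF and 0 reads in both controls. With 3 reads over both controls taken as the limit that a count of 0 allows, its pooled level was 3.13-fold higher with G-CSF. That ratio leaves out the counting error of the G-CSF reads, so it is not a lower bound. Ms4a4b, a T cell gene next to Ms4a4c, stayed between 0.263 and 0.387 FPKM in every library. Ms4a4d and Ms4a20 were at or below 0.231 FPKM in every library. Ms4a12 and Ms4a15 had reads in controls only. Ms4a12 had 0 reads in all 3 G-CSF libraries, against 0 and 5 reads in controls, and Ms4a15 had 0 reads in all 3 G-CSF libraries, against 1 and 4 reads in controls.

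**Figure D2:**
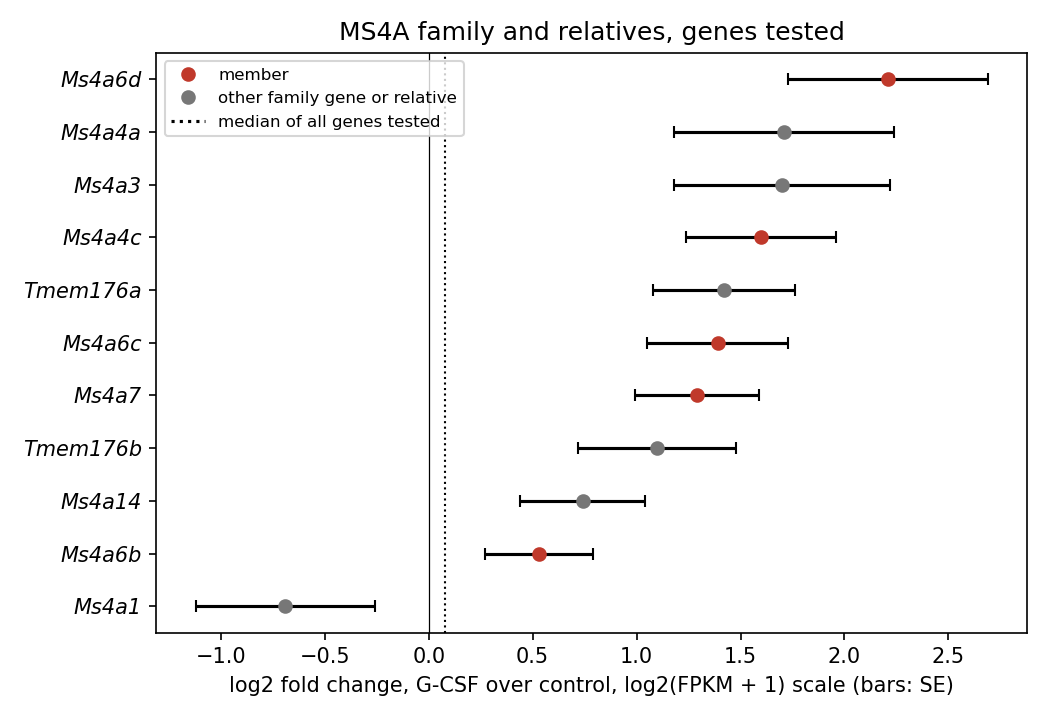
Log2 fold changes of G-CSF over control on the log2(FPKM + 1) scale (x axis) for the 11 tested genes of the MS4A family and its relatives, with bars of 1 SE from limma. Members are red, other genes grey, and the dotted line is the median of all genes tested, 0.08. Values run from -0.69 for Ms4a1 to 2.21 for Ms4a6d.

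The genes lie side by side. GENCODE M21 lists 19 MS4A genes in a cluster of 678.6 kb on chromosome 19, from 10962293 to 11640851, and the 5 members occupy 283.8 kb of it together with 3 other MS4A genes, Ms4a4a, Ms4a4b and Ms4a4d. Neighbours within that stretch had very unlike levels. Ms4a6c averaged 27.7 ± 4.02 FPKM with G-CSF and 10.3 ± 4.42 FPKM in controls, whereas Ms4a4b, which ends at 11467055, just before it, averaged 0.337 ± 0.0435 FPKM with G-CSF and 0.266 ± 0.00472 FPKM in controls (SD, n = 3 and 2).

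**Figure D3:**
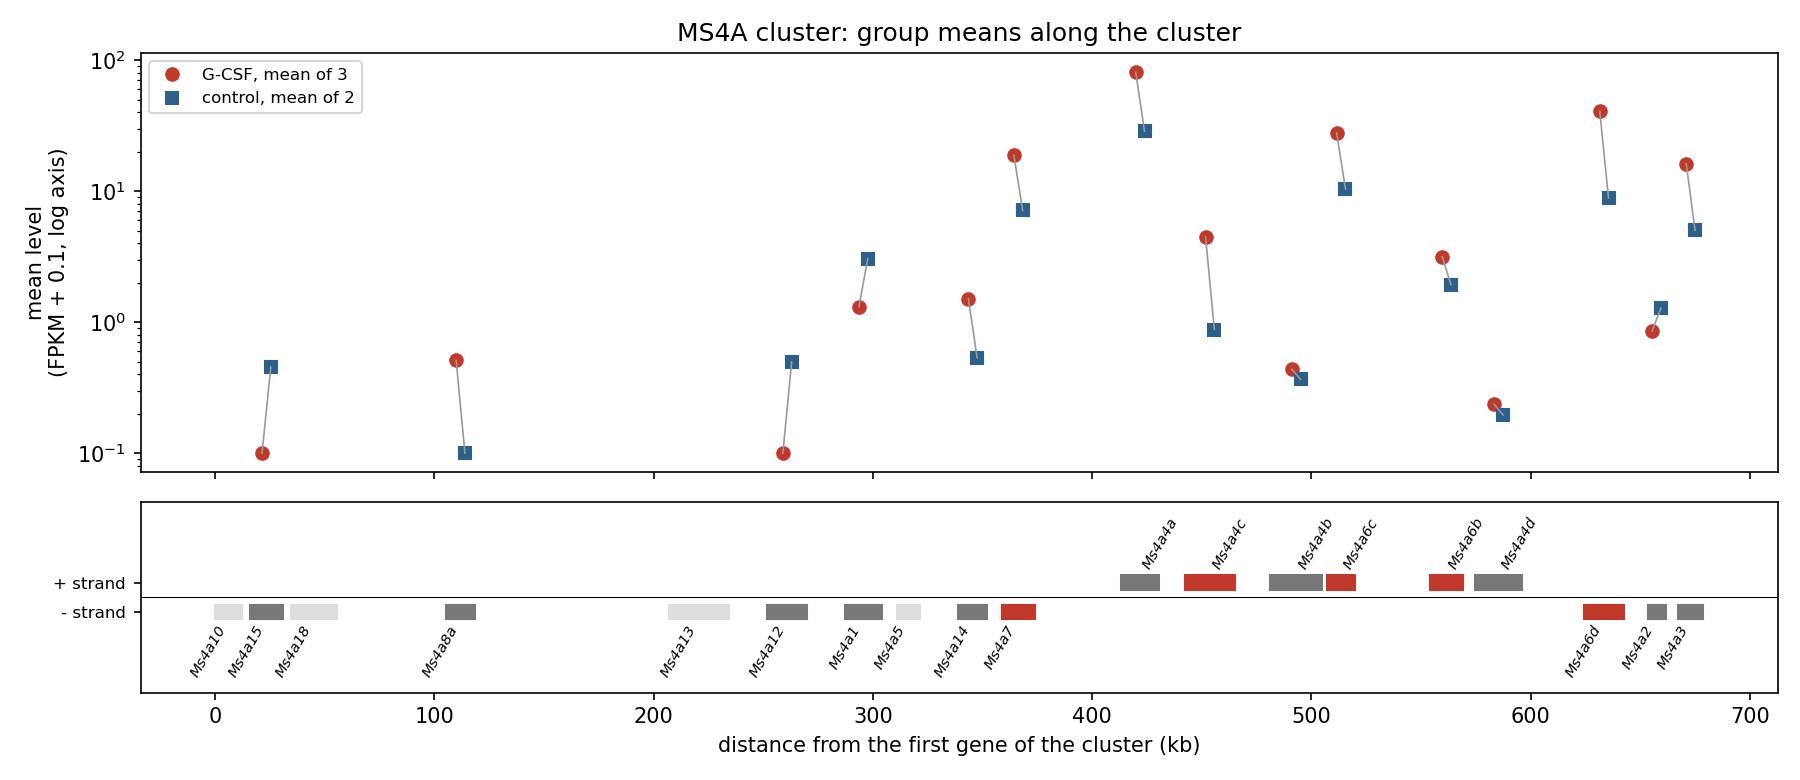
Mean level of each MS4A gene (upper panel, y axis FPKM + 0.1 on a log axis, G-CSF circles and control squares drawn 2 kb to either side of the gene's middle) along the cluster, and the genes by strand (lower panel; members red, other genes in the table dark grey, genes not in the table light grey). The x axis is distance in kb from the first gene of the cluster. The genes above 10 FPKM with G-CSF are Ms4a7, Ms4a4a, Ms4a6c, Ms4a6d and Ms4a3.

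The libraries were then checked against markers of the cells they could hold. Csf1r, Ly6c2 and Lyz2, from the list of classical monocyte markers, were present in every library, and no marker of that list was at 0 in all of them. Of 20 classical monocyte markers, none an MS4A gene, 18 had a positive log2 fold change, 13 were higher and 1 (Irf8) lower without overlap, 0 passed the adjustment and the median was 0.99. The shares over all genes tested were 56.3% positive, 20.0% higher and 11.9% lower without overlap. The summed level of that list was 5190 to 7990 FPKM with G-CSF, against 2440 to 6130 FPKM in controls. Its mean over genes on the log2(FPKM + 1) scale was 6.13, 6.0 and 6.06 with G-CSF and 5.19 and 4.24 in controls, a difference of 1.35, so it was lowest in control replicate 2, as the members were. The 20 macrophage markers summed to 1810 to 3040 FPKM with G-CSF, against 1550 to 2580 FPKM in controls, with 9 of 17 tested markers positive, a share near that of all genes, 4 higher and 2 lower without overlap, and a median of 0.11. Among them, the 4 higher ones, Adgre1, Mrc1, Hmox1 and Cd68, had log2 fold changes of 1.26, 1.11, 1.3 and 1.26. The 2 lower ones, Axl and Siglec1, had -2.76 and -1.01. Timd4 was at 0 in all 3 G-CSF libraries and at 0.0495 and 0.133 FPKM in controls. For 20 non-classical monocyte markers the sums were 608 to 828 FPKM with G-CSF, against 368 to 471 FPKM in controls. Of 16 tested, 12 were positive, 4 negative, 6 higher and 2 lower without overlap, with a median of 0.42. Cebpb, the marker of this list with the highest mean level, measured 395, 249 and 423 FPKM with G-CSF, against 55 and 228 FPKM in controls. Ace was at 0 in every library except control replicate 2. Neutrophil markers summed to 5270 to 8090 FPKM with G-CSF and to 12300 and 2360 FPKM in control replicates 1 and 2. Further lists had sums that did not overlap between the groups. Progenitor markers summed to 561 to 741 FPKM with G-CSF and 165 to 326 FPKM in controls. Of 12 tested progenitor markers, 7 were positive, 7 higher and 2 lower without overlap. Elane, Mpo and Prtn3, the highest of them with G-CSF, are also on the neutrophil list. Gfi1 (-1.3) and Myb (-0.91) were the 2 lower ones, and Cebpe, Kit and Cpa3 also had negative log2 fold changes. Mast cell, basophil and eosinophil markers summed to 118 to 151 FPKM with G-CSF and 235 to 344 FPKM in controls. Of 8 tested, 3 were positive and 4 lower without overlap. Erythroid and megakaryocyte markers summed to 546 to 594 FPKM with G-CSF and 714 to 864 FPKM in controls. Here 2 of 8 tested markers were positive and 3 were lower without overlap. Dendritic cell markers summed to 835 to 1450 FPKM with G-CSF and 675 to 679 FPKM in controls. Yet of 12 tested, 5 were positive, 2 higher and 5 lower without overlap. B cell markers summed to 86.7 to 111 FPKM with G-CSF and 166 to 279 FPKM in controls. All 13 tested were negative, and 5 were lower without overlap. The part of these other cells in the levels of the members was not tested.

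**Figure D4:**
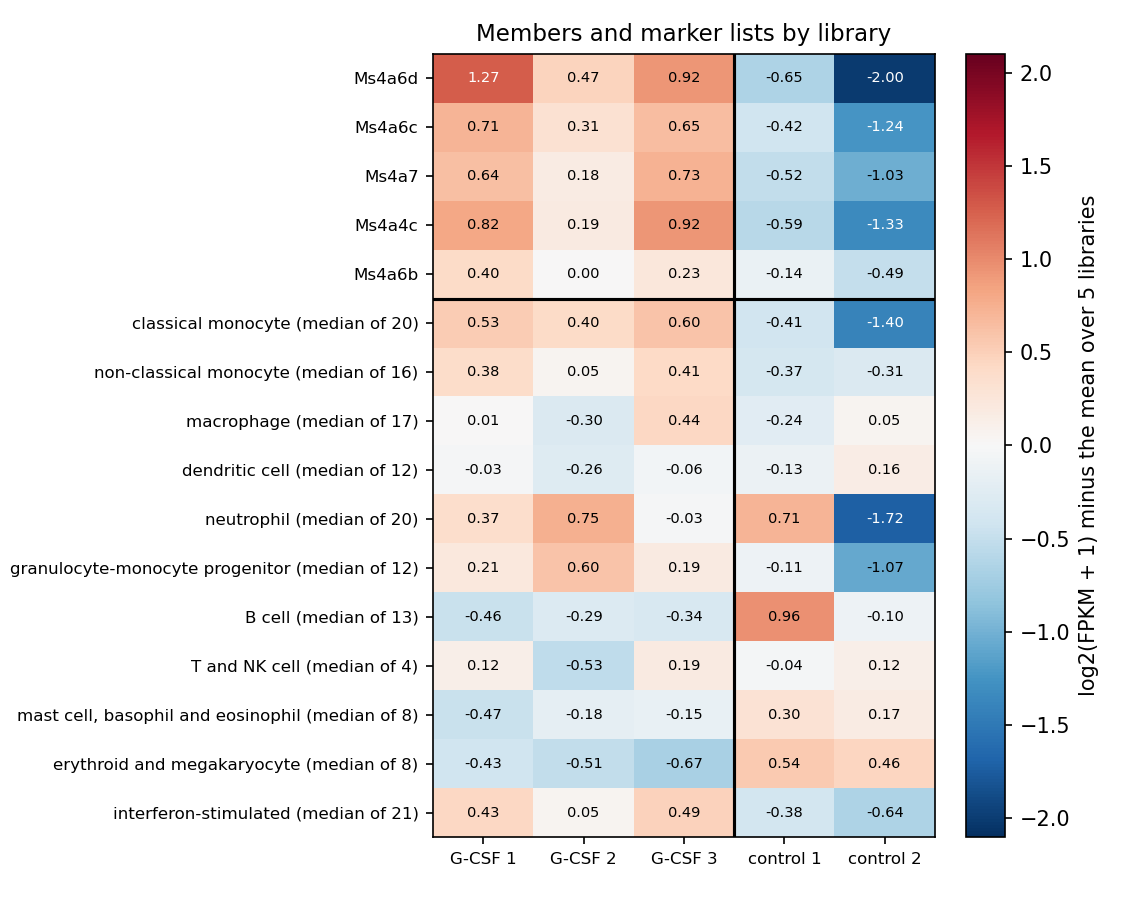
Log2(FPKM + 1) of each member, and the median over the tested genes of each marker list, minus the gene's mean over the 5 libraries (colour and printed value), for G-CSF and control libraries in columns. Control replicate 2 has the lowest value for all 5 members and, among the lists, for those of classical monocytes, neutrophils, progenitors and interferon-stimulated genes.

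Set against the mean of the 20 classical monocyte markers in the same library, Ms4a6c and Ms4a7 differed little between the groups, and the value of Ms4a4c depended on the pseudocount. This scale was added once the values had been seen. The mean of the markers differed by 1.35 between the groups, whereas their median log2 fold change was 0.99. The relative values therefore depend on the use of the mean, and a scale set on the median was not tested. Ms4a6c was -1.15, -1.41 and -1.13 on the log2 scale relative to those markers with G-CSF and -1.34 and -1.21 in controls, a difference of 0.04. For Ms4a7 the difference was -0.06, and the groups overlapped for both genes. Ms4a4c differed by 0.26 with overlapping groups, but with a pseudocount of 0.1 it was -3.75, -4.4 and -3.55 with G-CSF and -4.63 and -5.23 in controls. That difference of 1.03 ± 0.43 (SE; limma adjusted p = 0.0982) came without overlap, whereas for the other members it was within 0.1 of the first value. Ms4a6d was higher, at -0.40, -1.08 and -0.67 with G-CSF and -1.38 and -1.79 in controls, a difference of 0.86 ± 0.36 (SE; limma adjusted p = 0.0803). Ms4a6b was lower, at -3.93, -4.20 and -4.02 with G-CSF and -3.52 and -2.93 in controls, a difference of -0.82 ± 0.32 (SE; limma adjusted p = 0.0677). On this scale the median of all genes tested was -1.26, so Ms4a6b, at -0.82, lay above the typical gene. Because the scaling moved that median away from 0, adjusted p-values here cannot be compared with those of the main scale. Unadjusted limma p-values were 0.0404 for Ms4a6b, 0.0528 for Ms4a6d and, with the pseudocount of 0.1, 0.0572 for Ms4a4c. The groups did not overlap for Ms4a6b and Ms4a6d. The share of all genes without overlap is not given for this scale at either pseudocount.

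**Figure D5:**
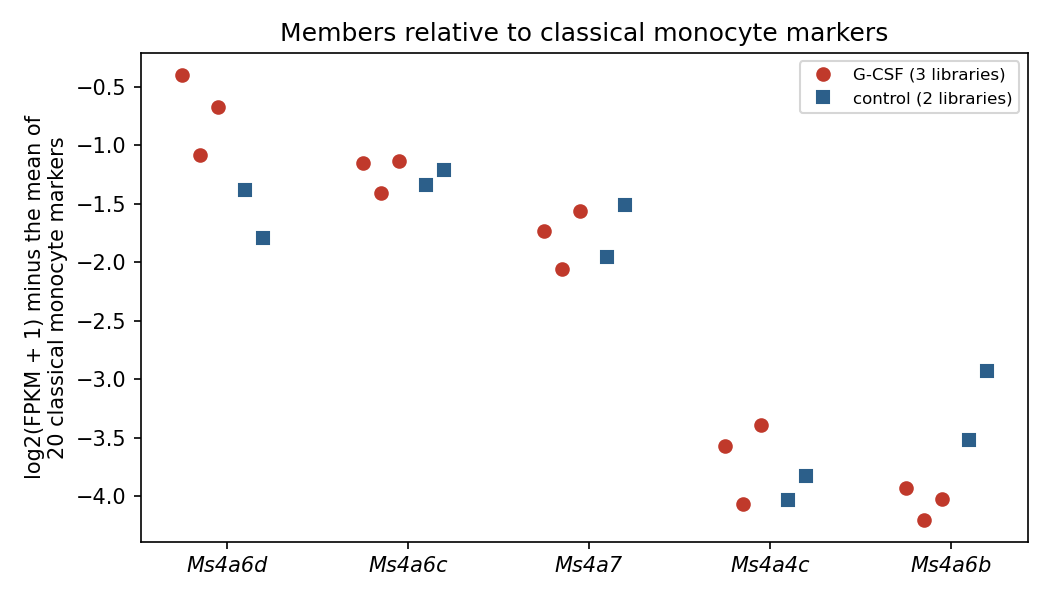
Each member's log2(FPKM + 1) minus the mean of 20 classical monocyte markers in the same library (y axis), for the 3 G-CSF libraries (red circles) and the 2 controls (blue squares). With the pseudocount of 1 used here the groups overlap for Ms4a6c, Ms4a7 and Ms4a4c (for Ms4a4c they do not with 0.1), Ms4a6d is higher in the G-CSF libraries, and Ms4a6b is lower in them.

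Genes of receptors and signalling chains known from work on MS4A proteins had a lower median than the members. Of a list of 18 partners, 16 were tested, 10 had a positive log2 fold change, 6 were higher and 2 (Syk and Cd81) lower without overlap, 0 passed and the median was 0.26. The share of positive genes was close to the 56.3% of all genes tested, of which 20.0% were higher and 11.9% lower without overlap. The signalling chain gene Fcer1g measured 387, 264 and 407 FPKM with G-CSF, against 178 and 131 FPKM in controls, and the inflammasome gene Nlrp3 measured 28.5, 29.1 and 26.4 FPKM with G-CSF, against 18.2 and 6.61 FPKM in controls (limma adjusted p = 0.352 for both). Vsig4, the partner of Ms4a6d, was below 1 FPKM in every library. The receptor adapter gene Tyrobp was highest in control replicate 2, with 1070, 848 and 1180 FPKM with G-CSF, against 514 and 3260 FPKM in controls, so control replicate 2 was not low for every myeloid gene.

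Interferon-stimulated genes, among which Ms4a4c is often counted, mostly had positive values. Of 24 listed genes 21 were tested, 20 had a positive log2 fold change, 14 were higher and 1 (Cmpk2) lower without overlap, 0 passed and the median was 0.74, against 56.3% positive and 20.0% higher without overlap among all genes tested. Ifit1, Rsad2, Gbp3, Rtp4 and Xaf1 were below 1 FPKM in both controls and passed the filter through G-CSF libraries alone. This favours positive values in these counts. With no filter the median of the list was 0.57. The antiviral gene Oas2 measured 5.23, 5.57 and 5.77 FPKM with G-CSF, against 0.918 and 1.23 FPKM in controls (limma adjusted p = 0.162). Unlike Ms4a4c, Oas2 was not lowest in control replicate 2.

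The genes with the nearest profile to each member were found as the smallest root mean square difference of centred log2(FPKM + 1) over the 5 libraries, among about 5830 protein-coding genes with a mean of at least 5 FPKM. With 5 libraries, many genes lie close to any profile, so the names describe likeness only. Nearest to Ms4a7 were the cholesterol exporter gene Abca1 (0.033), Fcer1g (0.068) and the heme oxygenase gene Hmox1 (0.074). Abca1 measured 38.5, 26.3 and 40.9 FPKM with G-CSF, against 16.9 and 11.5 FPKM in controls. Ms4a6d was nearest to Pla2g7, encoding a secreted phospholipase that degrades platelet-activating factor (0.088), which measured 166, 106 and 150 FPKM with G-CSF, against 43.1 and 16.4 FPKM in controls, followed by Emb (0.150) and Rassf4 (0.168). For Ms4a6c these genes were M6pr, a mannose 6-phosphate receptor gene, N4bp1 and Parp14, at 0.058 to 0.075. For Ms4a4c they were the lectin receptor gene Clec4a3, Dbi and the NF-kB inhibitor gene Nfkbia, at 0.106 to 0.107, and for Ms4a6b the DNA repair gene Tdg, the chaperonin gene Cct3 and Pcnp, at 0.031 to 0.036. Among the members themselves, Ms4a6c and Ms4a7 were the closest pair (0.130) and Ms4a6b and Ms4a6d the farthest (0.894).

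With control replicate 2 left out, the log2 fold changes were 1.54 for Ms4a6d, 0.98 for Ms4a6c, 1.04 for Ms4a7, 1.23 for Ms4a4c and 0.35 for Ms4a6b, and no member passed (limma adjusted p between 0.203 and 0.443). With control replicate 1 left out they were 2.89 for Ms4a6d, 1.80 for Ms4a6c, 1.55 for Ms4a7, 1.98 for Ms4a4c and 0.71 for Ms4a6b. In that fit all except Ms4a6b passed (limma adjusted p between 0.0162 and 0.0266), as did 16.1% of all genes upward and 11.9% downward, with a single control assumed to vary like the G-CSF libraries.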

How the data were processed

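Bulk RNA-seq values of 5 libraries were taken from 1 table that the authors deposited as FPKM. The submitters' processing notes name the build mm10. No source used here names the aligner, counter, annotation release or strandedness of the bulk libraries. The table's 33559 rows carried a symbol and a gene type but no gene ID, and 89.6% matched by symbol a single gene of GENCODE M21 (GRCm38). Coordinates and exonic lengths are from that match. For 94.5% of matched rows with a value above 0, FPKM times exonic length was a whole multiple of 1 step in all 5 libraries, within 0.01 reads, which gave reads per gene. Their sums are lower bounds of depth, and rows without a match are left out.

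Groups were taken from the labels. Log2(FPKM + 1) of genes reaching FPKM 1 in 2 or more libraries was tested with limma 3.58.1 (R 4.3.3; empirical Bayes with trend, two-sided, 3 residual degrees of freedom, Benjamini-Hochberg adjustment over all 16791 genes, threshold 0.05). The test was checked on simulated data. A fold change on this scale understates that of low genes. A gene can pass the filter through the libraries of a single group, which favours a higher value in that group. Among listed genes this held with G-CSF for Ifit1, Rsad2, Gbp3, Rtp4, Xaf1, Ms4a14, Vcan, Adgre4, Cd34 and Tnfrsf18. In controls it held for Clec9a, Vpreb1 and Epor. Intervals of reads are exact 95% Poisson or binomial ones. Named genes were the 5 members, the other MS4A genes and relatives, for each member the 3 tested protein-coding genes with the nearest profile, and, where a result turned on them, leading genes of the other lists (smallest p or highest level). Csf1r, Ly6c2, Timd4, Ace, Vsig4, Adgre1, Mrc1, Cd68, Irf8, Syk, Cd81, Cmpk2, Ms4a20, Elane, Mpo, Prtn3, Cebpb and the genes overlapping members were named after their values were seen. So were Siglec1, Gfi1, Myb, Cebpe, Kit, Cpa3 and the genes that passed the filter through a single group. The members and lists were chosen with earlier results of these data known. Lists also covered T and NK cells (4 tested, median log2 fold change -0.07), dendritic cells (12, -0.21), progenitors (12, 0.83), mast cells, basophils and eosinophils (8, -0.51), erythroid and megakaryocyte cells (8, -1.45), B cells (13, -0.69) and neutrophils (20, 0.89).

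Alternatives were pseudocounts of 0.1 and 5, no filter, a minimum FPKM of 5, median centring, quantile normalization, scaling to protein-coding FPKM, limma with no trend, limma's robust fit, voom on recovered reads, a restriction to protein-coding genes, the replicate number as a block, and each library left out. Scaling to the classical monocyte list, with pseudocounts of 1 and 0.1, was added after the data were seen. Promoter sequences are RefSeq's (GRCm38.p6). Other steps ran in Python 3.11.15 (scipy 1.17.1, numpy 2.4.6, matplotlib 3.10.9, pandas 2.3.3). The 14 skin samples were not analysed here.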

Additional observations from a re-analysis of the deposited data

How the results depend on the processing

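The log2 fold changes of the 5 members stayed positive in all 83 combinations of a member and an alternative planned beforehand. Ms4a6b and Ms4a4c did not reach FPKM 5 in 2 libraries, so the setting with that minimum gave them no value. Only without control replicate 1 did 4 of them pass. With each library left out in turn the values ran from 1.23 to 1.98 for Ms4a4c, 0.35 to 0.71 for Ms4a6b, 0.98 to 1.80 for Ms4a6c, 1.54 to 2.89 for Ms4a6d and 1.04 to 1.55 for Ms4a7. Relative to the classical monocyte list, Ms4a6b (-0.82) and Ms4a7 (-0.06) turned negative, and with a pseudocount of 0.1 on that scale, Ms4a6b (-0.76), Ms4a7 (-0.08) and Ms4a6c (-0.01). The median of all genes moved by -1.35 and -1.43 there, by construction of the scaling. Other settings that moved it by 0.1 or more were no filter (-0.18), a minimum FPKM of 5 (0.13), voom (-0.11) and leaving out control replicate 1 (0.1).

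The replicate numbers are shared by the groups but nothing in the labels says that they pair the libraries. Deviations from group means correlated at -0.0706 between the libraries numbered 1 and -0.231 between those numbered 2, across genes. With the replicate block the values were 1.47 for Ms4a4c, 0.52 for Ms4a6b, 1.34 for Ms4a6c, 2.2 for Ms4a6d and 1.18 for Ms4a7, none of which passed, and 0 genes were called in either direction.

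The count of genes called higher, 1 as reported, was 3 with a pseudocount of 0.1 and with voom, 2 with a minimum FPKM of 5 and with limma without trend, 30 with protein-coding genes only (fewer genes tested), and 0 with a pseudocount of 5, no filter, median centring, quantile normalization, scaling to protein-coding FPKM and the replicate block. It ran from 0 to 2698 with each library left out. Genes called lower, 0 as reported, numbered 3 with protein-coding genes only, 2 with voom and 0 to 2002 with each library left out. No member was among those called with protein-coding genes only or voom.

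The median of the family list, 1.39, was 0.82 with a pseudocount of 5, 0.74 with no filter, and 0.98 to 1.55 with a library left out. For the partners list, 0.26 as reported, it was 0.15 with a pseudocount of 5, 0.12 with no filter, 0.14 with a minimum FPKM of 5, 0.07 with quantile normalization, 0.10 with voom and 0.20 to 0.48 with a library left out. For the interferon-stimulated list, 0.74 as reported, it was 1.10 and 0.36 with pseudocounts of 0.1 and 5 and 1.02 with a minimum FPKM of 5 and with voom. Causes of these shifts were not tested. Depth limits Ms4a4c most, with 2 reads in control replicate 2.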
